A study of Mus musculus with 21 samples.

Results

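The CD8+ T cells of the spleen were compared between mice carrying L-gp130 and control mice. The comparison takes 9 of the 21 libraries of the series, 3 from L-gp130fl/+;CD4Cre+/- mice and 6 from CD4Cre+/- mice, chosen by genotype and cell type from the labels. The mice were C57BL/6J at postnatal day 35. L-gp130 mice 1 and 2 were male and mouse 3 female, and among the controls mice 1, 2, 4 and 5 were male and mice 3 and 6 female. Controls carry the same CD4Cre transgene, so both groups express Cre and differ in the floxed L-gp130 allele. Cre from the Cd4 promoter acts from the double-positive thymocyte on, the stage that expresses both CD4 and CD8, and the allele is therefore recombined in cells that become CD8 T cells. CD8+ cells were left untouched while magnetic beads removed the other cells of the spleen, and polyadenylated RNA was sequenced. All genes with enough reads (14254) were tested, and 38877 transcripts of 13836 genes.

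gp130, the product of Il6st, carries the signal of the cytokines LIF, oncostatin M, interleukin-6, interleukin-11 and interleukin-27 into the cell. Binding of a cytokine brings gp130 chains together, the Janus kinases attached to them are activated, and these phosphorylate STAT3, which enters the nucleus and induces its targets. SOCS3 is one of those targets and binds back to gp130, which ends the signal. L-gp130 is a gp130 whose extracellular part is replaced by a leucine zipper, so that it pairs and signals without a cytokine. Naive CD8 T cells circulate through blood and lymphoid organs at rest. After antigen they divide, take up glucose, make granzymes and cytokines, and display inhibitory receptors such as PD-1 and LAG-3.

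Depth was similar in all libraries, with 17217364 to 19476881 estimated counts in the L-gp130 mice and 17719183 to 19286396 in the controls. The first principal component of log2 expression (39.35% of the variance) separated the genotypes. On the second component (12.86%), control mice 1 to 3 lay between -27.9 and -23.43 and control mice 4 to 6 between 6.864 and 31.26, a split of the control group for which the labels give no reason. The CD8 identity of both groups was present in the data: Cd8a was at 778 to 909 CPM (depth-scaled counts, adjusted by the trimmed mean of M-values) in L-gp130 mice and at 952 to 1219 CPM in controls, whereas Cd4 was at 9.83 to 11 and 3.32 to 20.4 CPM. p-values below come from edgeR's quasi-likelihood test with sex as a covariate, adjusted over all genes tested, and rest on the spread among these 9 mice.

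L-gp130 changed about equal numbers of genes in each direction. Of the 14254 genes tested, 2996 (21.0%) passed an adjusted p of 0.05, of which 1495 (10.5%) were higher and 1501 (10.5%) lower in the L-gp130 mice. At least a 2-fold change was reached by 597 genes upward and 239 downward. The groups did not overlap in 3438 genes (24.1%), and 2617 of the called genes were among them. The median log2 fold change over all genes was -0.01. The count was 1374, 1865 and 1554 without L-gp130 mouse 1, 2 or 3, and 1740 in males only. Counts of list members below are read against the shares over all genes. In bulk RNA, fewer cells of a type and less RNA per cell cannot be told apart, and this holds for every gene below.

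**Figure D1:**
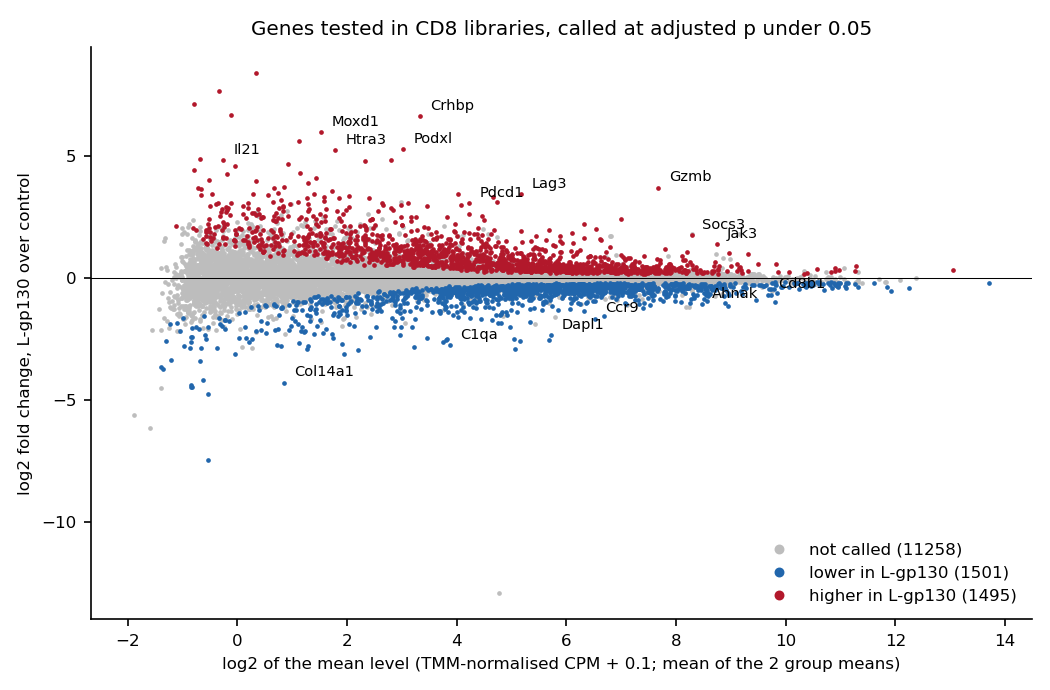
Log2 fold change of L-gp130 over control (vertical axis) against the log2 of the mean level in CPM (horizontal axis), 1 point for each of the 14254 genes tested. Red points are the 1495 genes called higher, blue points the 1501 called lower and grey points the genes not called, and Crhbp, Gzmb, Lag3 and Pdcd1 stand among the highest.

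The receptor chain and the transducer changed in opposite directions, and the feedback inhibitor rose most. Il6st, which encodes the natural gp130, was at 185, 193 and 169.7 CPM in L-gp130 mice 1, 2 and 3 and at 239 to 291 CPM (median 255) in the controls, a log2 fold change of -0.52 ± 0.08 (SE; adjusted p = 0.00198). The labels do not say how much of the gp130 sequence is in the allele, and reads from it may be missing from the Il6st count, which therefore does not check the genotype. Stat3 was at 329, 357 and 356 CPM against 186 to 246 CPM (median 209), and rose by 0.73 ± 0.07 on the log2 scale (adjusted p = 0.000199). Socs3 was at 444, 514 and 492 CPM against 115 to 171 CPM (median 138), a log2 fold change of 1.78 ± 0.12 (adjusted p = 1.23e-05). None of these 3 genes overlapped between the groups: every L-gp130 mouse lay outside the range of the 6 controls.

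Other receptor chains of the family mostly did not pass the test. Of 12 genes listed, 9 had enough reads, and 1 rose and 2 fell. Il6ra, the chain that binds interleukin-6 beside gp130, fell with Il6st. It was at 161, 183 and 159 CPM against 246 to 322 CPM (median 291), a log2 fold change of -0.77 ± 0.11 (adjusted p = 0.00106). Il12rb1, a chain of the interleukin-12 and interleukin-23 receptors, rose from a control median of 24.4 CPM to 36.0, 39.6 and 49.6 CPM (log2 fold change 0.77 ± 0.10, adjusted p = 0.000798). Il27ra, Il12rb2, Il23r, Lifr, Il11ra1 and Csf3r were not called.

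Among the 11 Janus kinase and STAT genes, 3 rose and 1 fell, and 2 fell without control mouse 1 or 2 or with no filter, 3 in DESeq2 and 4 against control mice 4 to 6. Jak3, the kinase of the common gamma chain of the interleukin-2, interleukin-7 and interleukin-15 receptors, had the smallest adjusted p. Its level was 598, 609.6 and 651 CPM in the L-gp130 mice and 211 to 264 CPM (median 231) in the controls (log2 fold change 1.39 ± 0.07, adjusted p = 2.81e-06). Jak1, the main kinase on gp130, went the other way, from 1132 to 1283 CPM (median 1190) in controls to 868, 986 and 962 CPM (log2 fold change -0.35 ± 0.06, adjusted p = 0.00392). Stat5a rose by 0.29 ± 0.07 (adjusted p = 0.0155). The annotated ends of Stat5a and Stat3 overlap, and reads carried no strand. Stat4, Stat5b and Stat6 were not called.

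Of 17 inhibitors of the pathway, 2 rose and 1 fell, and 2 fell without control mouse 1, in DESeq2 and against control mice 1 to 3, and 4 against control mice 4 to 6. Beside Socs3, Socs1, which blocks interferon and gamma chain signals, was at 58.5, 77.2 and 66.4 CPM against 41.5 to 56.9 CPM (median 47.1; log2 fold change 0.50 ± 0.12, adjusted p = 0.0122). Its call was lost without L-gp130 mouse 2 (adjusted p = 0.0781), without mouse 3 (0.076) and in males only (0.077). Pias1, an E3 SUMO ligase that restrains STAT proteins, fell from a control median of 74.3 CPM to 48.5, 51.9 and 58.3 CPM (log2 fold change -0.52 ± 0.09, adjusted p = 0.00303). Cish, an inhibitor induced by STAT5, had a log2 fold change of 0.12 and was not called.

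**Figure D2:**
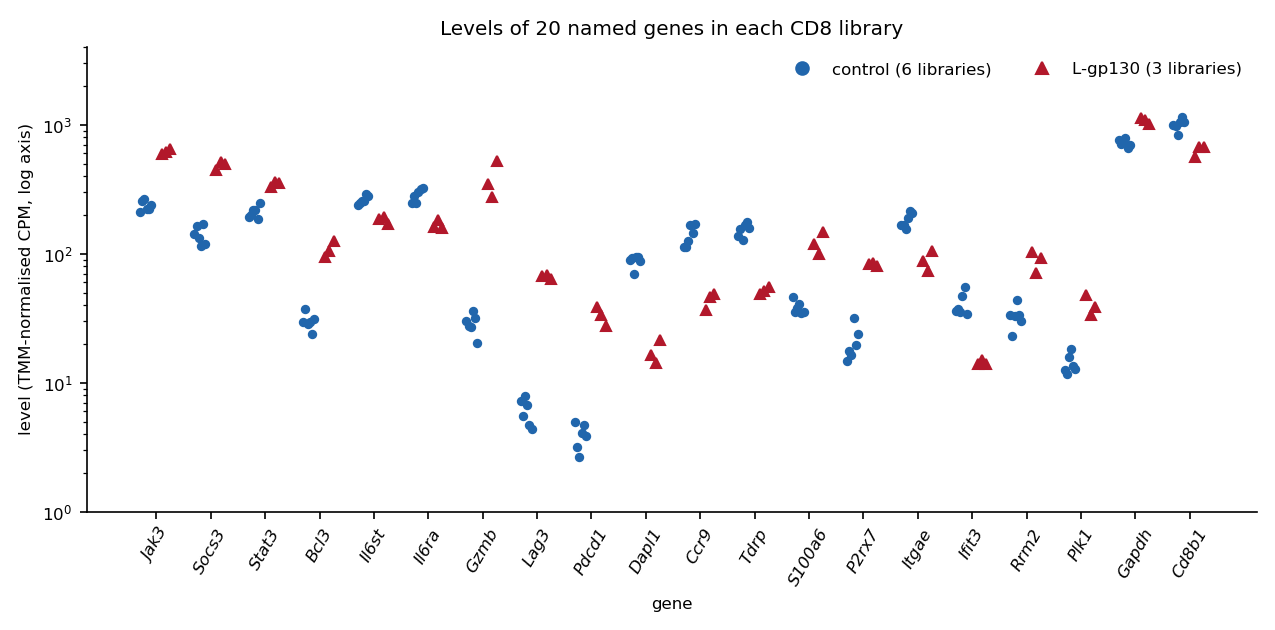
Level in CPM (log axis) of genes named in the text, with 1 point for each of the 9 mice, controls as blue circles and L-gp130 mice as red triangles. Socs3, Stat3, Jak3, Gzmb, Lag3 and Pdcd1 are higher in all 3 L-gp130 mice than in all 6 controls, and Il6st, Il6ra and Dapl1 lower, with no overlap.

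Genes known as STAT3 targets in T cells rose more often than they fell. Of 27 listed, 26 were tested, and 13 rose and 2 fell, with a median log2 fold change of 0.59 against -0.01 for all genes. The summed level of the list overlapped between the groups, at 3720 to 4377 CPM in the L-gp130 mice. Control mice 1 to 3 were at 3771 to 3916 CPM and control mice 4 to 6 at 2457 to 2934 CPM. Bcl3, an atypical IkB protein that binds NF-kB dimers in the nucleus, was at 94.1, 105 and 125 CPM against 23.9 to 37.4 CPM (median 29.6), a log2 fold change of 1.84 ± 0.12 (adjusted p = 1.24e-05). Pim2, a serine kinase that promotes survival, was at 284, 321 and 325 CPM against 119 to 156 CPM (median 132; log2 fold change 1.20 ± 0.09, adjusted p = 2.88e-05). Neither gene overlapped between the groups. Pim1 (0.73), Myc (0.64), Bcl6 (0.72), Irf4 (0.77), Icam1 (0.60) and Batf (0.57) rose by smaller log2 amounts, each from levels already above 9 CPM in every control.

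The largest ratios in this list came from genes with few reads in controls. Il21, a cytokine that itself signals through STAT3, had 83 counts in the 3 L-gp130 libraries and 5 in the 6 controls, a depth-adjusted ratio of 33.0 (95% interval for counting error 13.6 to 104). Its level was 1.92, 1.57 and 0.801 CPM in the L-gp130 mice and at most 0.112 CPM in a control. Tnfrsf8, which encodes the TNF receptor family member CD30, was at 2.93, 3.75 and 2.23 CPM against 0.259 to 0.596 CPM (log2 fold change 2.95 ± 0.35, adjusted p = 0.000513). Lif, the gp130 cytokine, was at 8.08, 4.31 and 6.81 CPM against 0.405 to 1.81 CPM (log2 fold change 2.63 ± 0.37, adjusted p = 0.00117). Ccr10, a skin-homing chemokine receptor, was at 6.56, 8.05 and 18.9 CPM against 0.870 to 1.67 CPM (log2 fold change 3.02 ± 0.30, adjusted p = 0.000176). Ccr10 overlaps Cntnap1 in the genome, and Cntnap1 rose too (log2 fold change 3.07), so unstranded reads do not separate the pair. Osm, Prdm1, Mcl1 and Junb, also in the list, were not called.

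Both STAT3 targets that fell are survival genes. Bcl2 was at 170.4, 193 and 151 CPM against 225 to 296 CPM (median 287), a log2 fold change of -0.66 ± 0.11 (adjusted p = 0.00285). Bcl2l1, which encodes BCL-XL, was at 15.2, 21.5 and 16.7 CPM against 24.4 to 27.9 CPM (median 26.9; log2 fold change -0.58 ± 0.12, adjusted p = 0.00734). All 3 L-gp130 mice were below all controls for both genes. The Bcl2l1 call was lost without L-gp130 mouse 3 (adjusted p = 0.0563) and in males only (0.0681). Among the 15 BCL2 family genes 4 rose and 3 fell, and 2 rose without L-gp130 mouse 1 or 3 or in males only, while 5 fell against control mice 1 to 3. Bcl2a1d, a short-lived pro-survival member with near-identical copies in the genome, rose from a control median of 4.36 CPM to 10.8, 10.9 and 10.8 CPM (log2 fold change 1.29 ± 0.20, adjusted p = 0.0019). Bmf, a killer protein of the family, fell from 12.3 to 25.8 CPM in controls to 8.38, 11.4 and 6.12 CPM (log2 fold change -1.14 ± 0.21, adjusted p = 0.00386).

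STAT dimers bind the palindrome TTCNNNGAA, which reads the same on both strands. The start sites of Socs3, Icam1 and Bcl6 are shown because these genes rose and their promoter windows hold the palindrome, printed in capitals. The sequences are from RefSeq (GRCm38.p6), on each gene's own strand, up to the base before the start, except that Socs3 ends 85 bases earlier, before its first annotated exon base. They cover chr11:117969452-117969616 (minus strand) for Socs3, chr9:21015690-21015939 (plus strand) for Icam1 and chr16:23981284-23981533 (minus strand) for 1 of the starts of Bcl6.
Socs3: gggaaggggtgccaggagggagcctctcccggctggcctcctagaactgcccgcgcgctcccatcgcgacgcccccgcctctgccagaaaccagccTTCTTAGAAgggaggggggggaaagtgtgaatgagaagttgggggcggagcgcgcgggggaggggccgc
Icam1: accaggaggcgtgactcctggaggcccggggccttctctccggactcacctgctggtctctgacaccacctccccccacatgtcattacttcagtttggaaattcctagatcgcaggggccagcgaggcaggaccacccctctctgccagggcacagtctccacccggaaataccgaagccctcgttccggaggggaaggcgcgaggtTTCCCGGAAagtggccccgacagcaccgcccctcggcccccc
Bcl6: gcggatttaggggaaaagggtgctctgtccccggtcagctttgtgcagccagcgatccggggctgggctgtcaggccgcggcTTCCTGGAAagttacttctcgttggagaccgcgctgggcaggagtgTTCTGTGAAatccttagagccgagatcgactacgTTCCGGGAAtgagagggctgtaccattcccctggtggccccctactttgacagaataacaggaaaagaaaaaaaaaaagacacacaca
The palindrome begins 154 bases before the start in Socs3, as TTCTTAGAA, which is 69 bases before the end of the printed sequence, and 42 bases before it in Icam1, as TTCCCGGAA. The Bcl6 window holds 3 matches, 168, 122 and 88 bases before the start. Genes called higher, called lower and not called held the palindrome at similar shares. It was in 8.3% of 32851 promoter windows of 300 bases, in 9.21% of the 1118 genes called higher that had a window, in 8.29% of the 1122 called lower and in 8.3% of the 8111 not called. Among tested STAT3 targets with a window it was in 2 of 20.

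Most listed genes of the naive and resting state fell. None of 24 rose and 15 fell, with a median log2 fold change of -0.44. Dapl1, a gene of naive CD8 T cells, was at 16.3, 14.2 and 21.6 CPM in the L-gp130 mice and at 69.4 to 94.5 CPM (median 90.8) in the controls, a log2 fold change of -2.34 ± 0.15 (adjusted p = 1.2e-05). Ccr9, the gut-homing chemokine receptor that recent thymic emigrants carry, was at 36.7, 46.0 and 49.0 CPM against 112 to 171 CPM (median 135; log2 fold change -1.66 ± 0.16, adjusted p = 0.000213). Tdrp was at 48.3, 51.4 and 55.5 CPM against 128 to 176 CPM (median 156; log2 fold change -1.57 ± 0.11, adjusted p = 1.69e-05). For each of the 3 the highest L-gp130 mouse lay below the lowest control.

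Smaller falls were seen in Ccr7, Klf2, Foxo1, Lef1 and S1pr1. Ccr7, which guides T cells into lymph nodes, was at 225, 278 and 265 CPM against 373 to 454 CPM (log2 fold change -0.67). Klf2 (-0.45), Foxo1 (-0.48), Lef1 (-0.56) and S1pr1 (-0.59) fell as well. Tcf7, which encodes TCF-1 and partners with Lef1, was at 1234, 1447 and 1309 CPM against 1316 to 1479 CPM and was not called. Il7r, Satb1, Btg1 and Bach2 were not called either.

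Effector and memory genes moved the other way, though not all of them. Of 33 genes 13 rose and 3 fell (median log2 fold change 0.30). S100a6, a calcium-binding protein of activated cells, was at 119.7, 100.3 and 147 CPM against 34.7 to 46.0 CPM (median 36.8), a log2 fold change of 1.67 ± 0.12 (adjusted p = 2.08e-05). Its relative S100a4 was at 57.5, 44.9 and 81.0 CPM against 20.7 to 28.1 CPM (log2 fold change 1.27 ± 0.15, adjusted p = 0.000513). Klrc1, which encodes the inhibitory receptor NKG2A, was at 76.6, 70.4 and 94.5 CPM against 33.3 to 40.4 CPM (log2 fold change 1.09 ± 0.10, adjusted p = 7.18e-05). In these 3 genes L-gp130 mouse 3 was the highest of all 9 mice. Cd44, Cxcr3, Tbx21, which encodes the effector transcription factor T-bet, and Id2, a partner of E proteins in effector cells, rose by 0.40, 0.64, 0.55 and 0.78.

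Several classical markers of antigen-experienced CD8 cells did not rise. Ly6c2, a surface protein of memory CD8 cells, fell to 274, 297 and 298 CPM from 374 to 571 CPM (median 459.9) in controls (log2 fold change -0.67 ± 0.11, adjusted p = 0.00217). Ahnak, a large scaffold protein, fell to 216, 184 and 296 CPM from 357 to 634 CPM (log2 fold change -1.05 ± 0.20, adjusted p = 0.00616). The chemokine receptor Cxcr6 fell by 0.78. Klrg1, Cx3cr1, Zeb2, Eomes, Klrk1 and Prdm1 were not called. Ly6c2 has a close copy, Ly6c1, which had a log2 fold change of -0.43 and was not called.

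Granzyme B stood apart from the rest of the cytotoxic machinery. Gzmb was at 348, 275 and 521 CPM in the L-gp130 mice and at 20.4 to 35.9 CPM (median 28.8) in the controls, a log2 fold change of 3.72 ± 0.21 (adjusted p = 1.42e-05). The lowest L-gp130 mouse was several times above the highest control. Gzma rose less, to 183, 208 and 281 CPM from 90.4 to 149 CPM (log2 fold change 0.90 ± 0.16, adjusted p = 0.00469). Prf1, which encodes the pore-forming perforin delivered with granzymes, was at 80.0, 94.8 and 108 CPM against 87.5 to 108 CPM and was not called (log2 fold change -0.06 ± 0.09). Tnfsf10, the death ligand TRAIL, was at 71.9, 58.6 and 71.6 CPM against 37.0 to 55.8 CPM (log2 fold change 0.62 ± 0.12, adjusted p = 0.00495), and its call was lost without L-gp130 mouse 3 (0.0507) and in males only (0.0533). Of 17 genes tested in the cytotoxic granule list, which also holds Tnfsf10, 8 rose and none fell. Only 3 were called without L-gp130 mouse 3, 5 without L-gp130 mouse 2, control mouse 2 or control mouse 5, and 4 in males.

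Secreted factors changed in both directions. Of 17 tested, 4 rose (Il21, Il4, Ccl5 and Tnfsf14) and 2 fell, and 8 rose against control mice 4 to 6. Ccl5, a chemokine stored by memory CD8 cells, was at 531, 601 and 894 CPM against 266 to 404 CPM (median 315), a log2 fold change of 1.03 ± 0.16 (adjusted p = 0.00209). Ltb and Lta, the lymphotoxins that shape lymphoid organs, both fell. Ltb was at 397, 449.5 and 464 CPM against 583 to 709.9 CPM (log2 fold change -0.59 ± 0.08, adjusted p = 0.000781), and Lta at 5.00, 4.91 and 7.09 CPM against 8.39 to 13 CPM (-0.88 ± 0.19, adjusted p = 0.00866). Without L-gp130 mouse 1 Lta missed the threshold (0.0569). Ifng, the main cytokine of CD8 effectors, was at 22.6, 24.3 and 33.1 CPM against 4.95 to 24.4 CPM and was not called (adjusted p = 0.313).

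Inhibitory receptors held some of the clearest changes. Of 23 genes 9 rose and 3 fell, with a median log2 fold change of 0.44. Lag3, an inhibitory receptor for MHC class II, was at 66.7, 68.8 and 63.3 CPM against 4.41 to 7.88 CPM (median 6.14), a log2 fold change of 3.44 ± 0.16 (adjusted p = 2.81e-06). Pdcd1, which encodes PD-1, was at 38.7, 33.4 and 27.8 CPM against 2.64 to 4.98 CPM (median 3.95; log2 fold change 3.09 ± 0.15, adjusted p = 2.81e-06). Cd160 was at 108, 91.3 and 109 CPM against 26.9 to 40.3 CPM (log2 fold change 1.46 ± 0.12, adjusted p = 4.25e-05). L-gp130 mice and controls were far apart in all 3 genes. Tigit (1.65), Ctla4 (1.55), Havcr2 (1.20), Nt5e (0.47) and Btla (0.44) rose too.

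The transcription factors of exhaustion in this list did not move together. Tox2 rose to 11.2, 10 and 6.87 CPM from 0.289 to 1.39 CPM in controls (log2 fold change 3.28 ± 0.37, adjusted p = 0.000374). Tox, its relative that sustains exhausted CD8 cells, fell to 35.2, 37.0 and 30.6 CPM from 44.2 to 53.7 CPM (log2 fold change -0.50 ± 0.08, adjusted p = 0.00242). Vsir, which encodes the inhibitory receptor VISTA of resting T cells, fell to 309, 355 and 394 CPM from 459 to 519 CPM (log2 fold change -0.47 ± 0.08, adjusted p = 0.00272). Nr4a1, Nr4a2 and Nr4a3 were not called.

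Costimulatory receptors were mixed, with 3 of 17 rising and 5 falling. Icos, a CD28 relative that appears after activation, was at 88.6, 92.0 and 91.4 CPM against 43.7 to 56.6 CPM (median 46.5; log2 fold change 0.92 ± 0.08, adjusted p = 4.43e-05). Cd2, an adhesion receptor of all T cells, was at 165, 188 and 180 CPM against 250.2 to 286 CPM (log2 fold change -0.62 ± 0.07, adjusted p = 0.00035). Neither overlapped between the groups. Cd226, Cd84, Ly9 and Tnfrsf18 fell as well, and Cd28, Cd27, Tnfrsf9 and Tnfrsf4 were not called.

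Among genes of tissue residency and TGF-beta signalling 4 of 20 rose and 7 fell. P2rx7, an ATP-gated channel of tissue-resident cells, was at 82.7, 84.2 and 80.1 CPM against 14.7 to 31.8 CPM (median 18.7), a log2 fold change of 2.0 ± 0.20 (adjusted p = 0.000325). Itgae, which encodes the epithelial-binding integrin CD103, was at 87.5, 73.9 and 104 CPM against 155 to 213 CPM (log2 fold change -1.06 ± 0.13, adjusted p = 0.000649). Itga1 (1.62) and Zfp683 (1.01), both known from resident memory cells, rose, and so did Ahr, a ligand-activated transcription factor, at 10.2, 12.3 and 13 CPM against 4.63 to 7.16 CPM (1.02). Resident cell markers were thus found on both sides. The 7 that fell became 3 without L-gp130 mouse 1 or 3, and 4 without mouse 2 or in males only.

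In the list of type 17 genes, 6 of 16 tested rose and none fell (median log2 fold change 0.50). They were Il21, Ahr, Irf4, Batf, Rora and Il1r1, of which all but Rora and Il1r1 are also in the STAT3 list. Il17a, the cytokine that gives type 17 cells their name, was not called. Of 20 homing genes 3 rose and 7 fell. Ccr4, a receptor of skin-homing and regulatory T cells, rose to 6.36, 8.41 and 6.87 CPM from 1.35 to 2.92 CPM (log2 fold change 1.61 ± 0.26, adjusted p = 0.00199). S1pr1, the receptor by which T cells leave lymphoid organs, fell to 282, 319.8 and 308 CPM from 417 to 522 CPM (log2 fold change -0.59 ± 0.08, adjusted p = 0.000794). The number of homing genes that fell was 4 without L-gp130 mouse 1.

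The coreceptor and parts of the antigen receptor fell moderately. Cd8b1 was at 560.5, 668 and 669.9 CPM against 829.7 to 1148 CPM (median 1024), a log2 fold change of -0.67 ± 0.10 (adjusted p = 0.00147). Cd8a was at 778, 847 and 909 CPM against 952 to 1219 CPM (log2 fold change -0.36 ± 0.08, adjusted p = 0.0112), a call that was lost without L-gp130 mouse 1 (0.0711). Both coreceptor chains were lower in all 3 L-gp130 mice than in all controls. Of 30 genes of antigen receptor signalling 2 rose and 7 fell, and 4 fell without L-gp130 mouse 3. The number that rose was 1 without any 1 of the L-gp130 mice, without control mouse 1, 3, 4 or 5 and in males only, and 4 against control mice 4 to 6. Cd247, the zeta chain of the receptor complex, was at 183, 208 and 175 CPM against 254 to 309 CPM (log2 fold change -0.60 ± 0.08, adjusted p = 0.000647). Lck, Zap70, Lat, Cd3e and Trac were not called. Runx3, Zbtb7b and Gata3, the factors of CD8 and CD4 fate, were not called either, while Bcl11b fell by 0.43.

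Interferon genes fell more often than they rose. Of 31 tested 11 fell, 2 rose and 18 were not called, with a median log2 fold change of -0.37. Ifit3, an RNA-binding antiviral protein, was at 13.9, 15.1 and 14 CPM against 34.2 to 55.1 CPM (median 36.4), a log2 fold change of -1.50 ± 0.15 (adjusted p = 0.000188). Usp18, which restrains the interferon receptor, was at 10.6, 10.5 and 7.78 CPM against 20.1 to 28.3 CPM (log2 fold change -1.39 ± 0.15, adjusted p = 0.000284). Ifit3b, a near-identical neighbour of Ifit3 with which reads can be shared, had the log2 fold change -1.39 ± 0.19. The L-gp130 mice lay below every control in all 3 genes. Isg15, Irf9 and Mx1 were not called. The 2 that rose are targets of interferon gamma, Gbp3 (0.46 ± 0.08, adjusted p = 0.00291) and Irf1 (0.28 ± 0.07, adjusted p = 0.0217), and Irf1 lost its call without L-gp130 mouse 2 (0.0679), without mouse 3 (0.17) and in males only (0.19). The number that fell was 7 without L-gp130 mouse 3 and in males only, and 19 against control mice 4 to 6 alone.

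Markers of dendritic cells, which include sources of interferon, summed to 262.8 to 317.7 CPM in the L-gp130 mice and to 329.3 to 427 CPM in the controls. Without Ccr9, the most abundant of them, the groups overlapped (216.7 to 268.7 CPM against 175.7 to 315 CPM), and their part in the interferon result was not tested. That list holds Ccr9 and Bst2, which T cells express and which fell, and Itgax, which rose to 63.6, 47.1 and 93.9 CPM from 24.9 to 32.5 CPM (log2 fold change 1.16 ± 0.15, adjusted p = 0.000794). Of the 12 dendritic cell markers 1 rose and 2 fell in the main fit. Against control mice 1 to 3 alone 6 fell, and against control mice 4 to 6 alone 4 rose. Class I antigen presentation genes fell in part. Of 16 genes 4 fell and none rose, 8 against control mice 1 to 3 alone and 7 in males only. B2m, the light chain of all class I molecules, was at 1488, 1639 and 1648 CPM against 1913 to 2244 CPM (median 2100; log2 fold change -0.39 ± 0.06, adjusted p = 0.00249). H2-T23, which encodes the Klrc1 ligand Qa-1, was at 360.3, 373 and 369.5 CPM against 445 to 522 CPM (log2 fold change -0.40 ± 0.06, adjusted p = 0.00145). H2-K1 and H2-D1, the classical molecules, were not called.

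The cell division lists had the largest shares of called members among the functional lists. Of 22 genes of mitosis 19 rose (median log2 fold change 1.13), and of 24 genes of S phase 18 rose (median 0.59), with none falling in either. Rrm2, the subunit of ribonucleotide reductase made in S phase, was at 103, 70.4 and 92.8 CPM against 23.1 to 43.8 CPM (median 33.2), a log2 fold change of 1.44 ± 0.17 (adjusted p = 0.000663). Mcm2, part of the replicative helicase, was at 157, 140.5 and 143 CPM against 93.5 to 110.3 CPM (log2 fold change 0.57 ± 0.07, adjusted p = 0.000531). Plk1, a mitotic kinase, was at 47.5, 33.7 and 38.4 CPM against 11.7 to 18.4 CPM (median 13.1; log2 fold change 1.5 ± 0.16, adjusted p = 0.00022). All 3 were higher in every L-gp130 mouse than in any control, and L-gp130 mouse 1 was the highest. Mki67, the common proliferation marker, was at 164, 97.6 and 149 CPM against 41.5 to 134 CPM, and was not called (adjusted p = 0.114).

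Erythroid precursors and plasma cells also divide or expand in the spleen, and some of their markers were higher beside the cell cycle genes. Klf1, an erythroid transcription factor, was at 30.1, 16.2 and 19.9 CPM against 4.96 to 10.9 CPM (log2 fold change 1.63 ± 0.25, adjusted p = 0.0019), and Car2, an erythroid carbonic anhydrase, at 138, 72.2 and 63.4 CPM against 19.3 to 34.6 CPM (1.73 ± 0.25, adjusted p = 0.0021). Car2 missed the threshold against control mice 1 to 3 alone (0.0534). L-gp130 mouse 1 was highest in both, as in Plk1 and Rrm2. Epor rose too (1.40 ± 0.34, adjusted p = 0.0156), a call lost without L-gp130 mouse 1 (0.116) and against control mice 1 to 3 alone (0.0556). The globin Hbb-bs did not follow them, at 41.4, 17.5 and 13.8 CPM against 13 to 258 CPM, and the 10 erythroid markers together summed to 134 to 294.2 CPM against 71.19 to 719.3 CPM. The part of erythroid or plasma cells in the rise of cell cycle genes was not tested.

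Glycolysis genes rose in 11 of 16 and fell in none, with a median log2 fold change of 0.37, and 6 rose without L-gp130 mouse 1. Tpi1, triosephosphate isomerase, was at 125, 109.7 and 104 CPM against 56.5 to 72.3 CPM (median 57.9; log2 fold change 0.91 ± 0.09, adjusted p = 0.000123). Gapdh was at 1130, 1096 and 1016 CPM against 657 to 792 CPM (log2 fold change 0.57 ± 0.06, adjusted p = 0.00035). The groups did not overlap in either, which makes Gapdh no reference gene in this comparison. Of 8 amino acid transporters 3 rose and 1, Slc43a2, fell (-0.50 ± 0.14, adjusted p = 0.0336), a call that was lost without L-gp130 mouse 1 or 2, without control mouse 4 or 6, against control mice 1 to 3 and with no filter. Slc7a5, which carries leucine into activated T cells, was at 102, 86.6 and 74.7 CPM against 55.7 to 68.3 CPM (log2 fold change 0.54 ± 0.10, adjusted p = 0.0046), and the glutamine carrier Slc1a5 rose by 0.55 ± 0.10 (adjusted p = 0.00382). Of 20 ribosome biogenesis genes 6 rose, among them Polr1b, a subunit of RNA polymerase I (0.50 ± 0.08, adjusted p = 0.00178). Hmgcs1, the first committed step of the mevalonate pathway, fell by 0.58 ± 0.09 (adjusted p = 0.00178), and 2 of 18 sterol genes fell in all. That count was 1 without L-gp130 mouse 2 or 3, without control mouse 3 or 5 and in males only, and 4 in DESeq2, and the other gene, Mvk, lost its call in 10 of 21 alternatives.

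Transcripts of the mitochondrial genome made up more of the reads in L-gp130 mice. The 9 listed summed to 24810, 29040 and 27310 CPM against 18880 to 24240 CPM (median 21200), without overlap, and 6 were called higher. That count was 1 without L-gp130 mouse 3 and 2 without mouse 2 or in males only. In the sum, control mice 1 to 3 were at 22060 to 24240 CPM and control mice 4 to 6 at 18880 to 20340 CPM. mt-Nd5, a subunit of complex I, was at 1585, 1833 and 1774 CPM against 1223 to 1395 CPM (log2 fold change 0.39 ± 0.06, adjusted p = 0.00223). The part of this share in other results was not tested.

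Of 22 genes of the immediate response to stimulation 3 rose and 1, Dusp2, fell, and 1 rose without L-gp130 mouse 3. The split of the controls ran through this list, which summed to 4905 to 5719 CPM in the L-gp130 mice, 5585 to 5743 CPM in control mice 1 to 3 and 2142 to 3025 CPM in control mice 4 to 6. Against control mice 4 to 6 alone 14 rose and 1 fell, and against control mice 1 to 3 alone 7 rose and 4 fell. The Dusp2 call was lost without any 1 of the L-gp130 mice, without control mouse 1, 3 or 4, in males only and with no filter. Egr3, a factor induced through the antigen receptor, was at 40.2, 39.0 and 42.5 CPM against 22.6 to 30.5 CPM (log2 fold change 0.58 ± 0.09, adjusted p = 0.00184). Fos was at 586, 508 and 601 CPM against 73.6 to 497 CPM, and its log2 fold change of 0.99 ± 0.53 was not called. In AP-1 and BATF genes 1 of 12 rose, Batf, which pairs with JUN and IRF4 in effector cells (39.8, 43.5 and 41.6 CPM against 25.9 to 31.7 CPM, log2 fold change 0.57 ± 0.08, adjusted p = 0.00145). This list too was split, at 3735 to 4050 CPM in control mice 1 to 3 and 1455 to 2024 CPM in control mice 4 to 6, with the L-gp130 mice at 3409 to 3893 CPM. The number that rose was 11 against control mice 4 to 6, 3 (and 1 that fell) against control mice 1 to 3, 3 without control mouse 3, and 2 without control mouse 2, in males only and in DESeq2. In NF-kB and IkB genes 2 of 12 rose. The count was 1 without any 1 of the L-gp130 mice, without control mouse 4, 5 or 6 and in males only, 4 without control mouse 2, and 5 (and 1 that fell) against control mice 4 to 6. Of 8 common gamma chain receptor genes 3 rose (1 without L-gp130 mouse 1 or 3, in males only and against control mice 1 to 3), led by Il2ra, the high-affinity chain for interleukin-2, at 15.3, 13.9 and 19.7 CPM against 2.94 to 8.67 CPM (1.33 ± 0.26, adjusted p = 0.00549), which lost its call in males only (0.0599). Ikzf2, which encodes Helios, rose from 34.1 to 53.2 CPM in controls to 122, 83.8 and 93.8 CPM (1.09 ± 0.15, adjusted p = 0.00106), 1 of 2 genes called among 13 E protein, ID, Ikaros and ZEB genes. None of 8 GIMAP genes, GTPases of resting lymphocytes, was called.

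**Figure D3:**
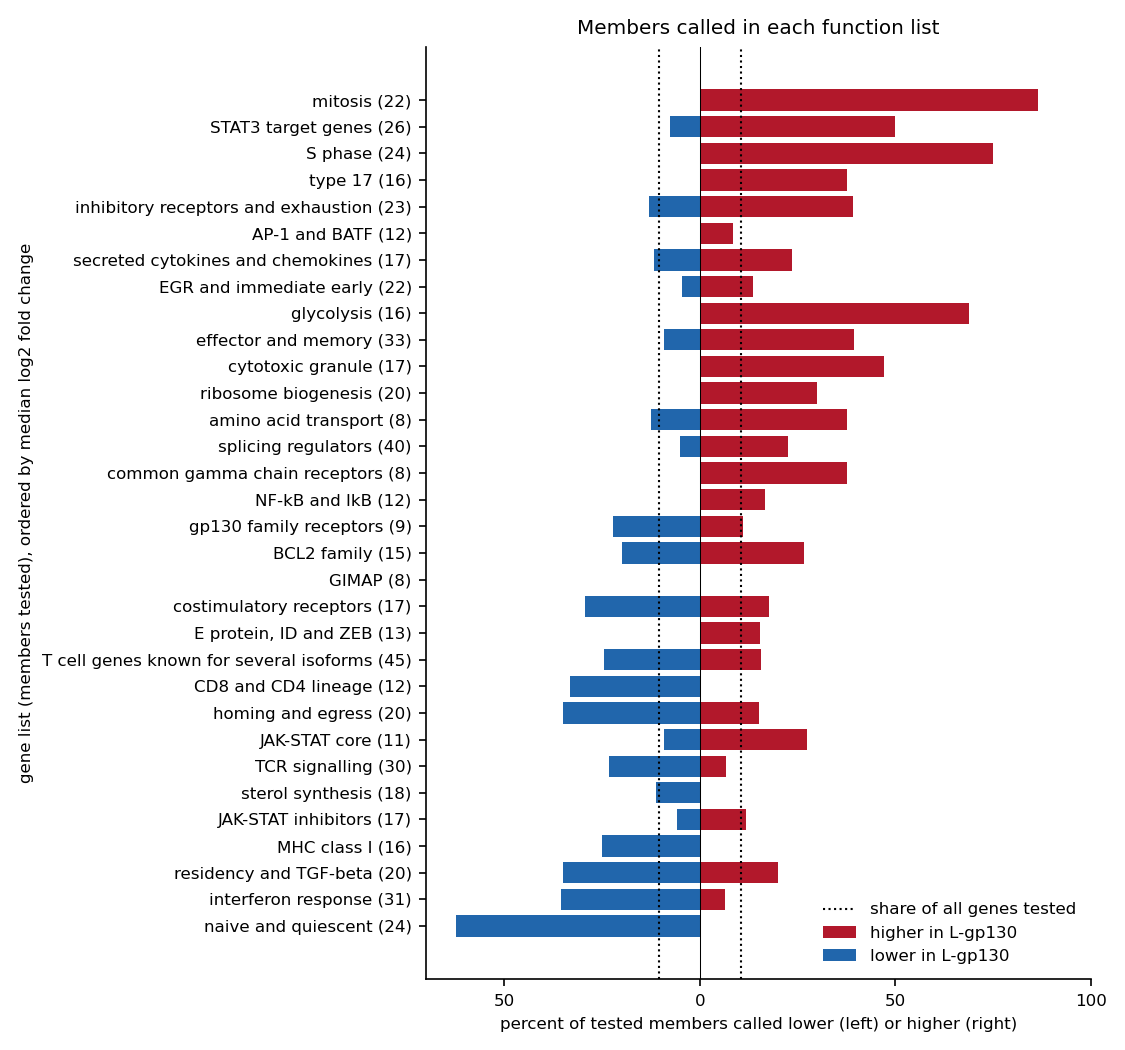
Percent of the tested members of each functional list that were called higher (red, right) or lower (blue, left), lists ordered by median log2 fold change, with dotted lines at the share over all genes tested. S phase and mitosis have 18 and 19 members called higher and none lower, and the naive list 15 called lower and none higher.

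The largest rises came from genes with almost no reads in control CD8 cells. Crhbp, a secreted binding protein of corticotropin-releasing hormone (chr13:95431371-95444924, GRCm38), was at 20.1, 23.3 and 15.8 CPM against at most 0.551 CPM in a control, with 1135 counts in the L-gp130 group and 21 in the controls, a depth-adjusted ratio of 107 (95% interval 69.9 to 174). Podxl, a sialomucin (chr6:31519488-31563981), was at 33.2, 6.69 and 7.15 CPM against 0.163 to 0.636 CPM, a ratio of 45.4 (33.1 to 64.0) to which L-gp130 mouse 1 gave most (fitted log2 fold change 5.31, and 4.26 without it). Htra3, a secreted serine protease (chr5:35652023-35679782), was at 6.56, 6.23 and 6.64 CPM against 0.0544 to 0.441 CPM, a ratio of 38.6 (24.4 to 64.9). Genes with overlap of the groups were left out of this ranking, so every L-gp130 mouse exceeded every control by choice of gene. Lrrc6, named for its leucine-rich repeats, was at 12.6, 12.5 and 14.7 CPM against 0.289 to 0.726 CPM (log2 fold change 4.85 ± 0.26, adjusted p = 3.14e-06). Moxd1, a copper monooxygenase (63.8, 34.2 to 134), Galr3, a galanin receptor (12.5, 9.35 to 17.1), and Arhgef25, a guanine nucleotide exchange factor (10.8, 8.44 to 13.9), had the ratios and intervals given in parentheses. The fitted log2 fold change of Moxd1 was 6.01, 10.06 without L-gp130 mouse 3 and in males only, and 8.33 without control mouse 3. That of Crhbp was 6.65, 7.36 without L-gp130 mouse 3 and 7.34 without control mouse 6. Clca3a1, Gzmb and Lag3 completed the largest 10 by fitted fold change.

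Several of the largest falls were in genes of other spleen cells. Col14a1, a collagen of fibroblasts, was at 0.101, 0.203 and 0.172 CPM against 1.23 to 7.06 CPM (median 2.92), a log2 fold change of -4.28 ± 0.66 (adjusted p = 0.00171). Mrc1, the mannose receptor of macrophages, was at 2.12, 2.08 and 2.57 CPM against 8.65 to 25.0 CPM (-2.84 ± 0.35, adjusted p = 0.000701). Fcna, a lectin of macrophages, and Stab2, a scavenger receptor of sinus lining cells, fell by 2.63 and 2.94. Ccr3, the eotaxin receptor, was at 1.26, 0.760 and 0.343 CPM against 3.36 to 10.6 CPM (-3.12 ± 0.44, adjusted p = 0.00117). Itga9 fell by 2.70 (adjusted p = 0.00793), a call lost without L-gp130 mouse 3 (0.0533). Genes with overlap of the groups were left out of this ranking too, so its absence here is not a further result.

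Markers of other cell types were also found in these libraries. Whether their reads came from such cells or from the CD8 cells was not tested. Macrophage and monocyte markers fell in 9 of 14 (median log2 fold change -1.67). They summed to 458.3, 383.8 and 287.4 CPM in the L-gp130 mice and to 409.1 to 842.9 CPM (median 537.1) in the controls. Without Lyz2, the most abundant of them, the sums were 93.54 to 135.1 CPM against 198.8 to 402.7 CPM, without overlap. C1qa, a complement subunit of macrophages, was at 3.74, 3.90 and 3.60 CPM against 11.9 to 37.8 CPM (log2 fold change -2.76 ± 0.36, adjusted p = 0.0011), and Vcam1, an adhesion molecule of red pulp macrophages, at 9.14, 7.55 and 14.9 CPM against 33.4 to 87.4 CPM (-2.57 ± 0.36, adjusted p = 0.00175). Stromal markers summed to 76.14 to 79.33 CPM against 115.4 to 147.5 CPM, nearly all of it Pecam1, an adhesion molecule that T cells express as well (71.8 to 75.6 CPM against 111 to 143 CPM). The other 8 summed to 3.737 to 4.356 CPM against 3.122 to 7.985 CPM, with overlap. The median log2 fold change of the 4 stromal markers tested was 0.32, with 2 called lower (Pecam1 and Col14a1) and none higher, and 2 called higher in limma-voom. Of 8 NK cell markers 4 fell, 2 without L-gp130 mouse 1 or 3, and the sum was 137.7, 147.1 and 142.2 CPM against 137.5 to 235.1 CPM. No marker of this list rose. NK cells also make Gzmb and Gzma, which rose, and the part of NK cells in that rise was not tested. In none of these lists was a marker, tested or not, at 0 in all libraries.

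CD4 and regulatory T cell markers rose in 4 of 7, among them Foxp3, the regulatory T cell factor, at 6.46, 8.71 and 7.44 CPM against 1.54 to 3.90 CPM (log2 fold change 1.63 ± 0.25, adjusted p = 0.00177). The others were Ctla4, Ikzf2 and Izumo1r, and 2 were called without L-gp130 mouse 2, Izumo1r not being among them (0.0787). Cd4 itself was at 10.6, 9.83 and 11 CPM against 3.32 to 20.4 CPM and was not called. The 4 gamma-delta T cell markers summed to 78.67, 75.58 and 95.37 CPM against 40.72 to 68.85 CPM. Cd163l1 alone of them was called (1.21 ± 0.18, adjusted p = 0.00195) and made up most of the sum in the L-gp130 mice (48.1 to 72.9 CPM against 19.45 to 33.7 CPM). The other 3 summed to 22.43 to 27.46 CPM against 19.08 to 35.12 CPM, with overlap, and Trdc, the constant segment of the delta chain, was not called. B cell markers summed to 55.04 to 81.7 CPM against 42.43 to 109.5 CPM, and neutrophil markers to 41.13 to 50.34 CPM against 18.46 to 104 CPM. The control split ran through the B cell sum. Control mice 1 to 3 were at 91.0 to 109.5 CPM and mice 4 to 6 at 42.43 to 50.11 CPM. In the main fit 1 B cell marker fell and no neutrophil marker was called. Against control mice 1 to 3 alone 5 B cell and 5 neutrophil markers fell, and against mice 4 to 6 alone 2 B cell markers rose. Plasma cell markers summed to 870.3, 422.3 and 1482 CPM against 183 to 488.6 CPM, with L-gp130 mice 1 and 3 above all controls and mouse 2 within their range. Without Igkc, the most abundant of them, the sums were 417.8, 273.4 and 601.7 CPM against 148.1 to 271.3 CPM, without overlap. L-gp130 mouse 2 was only just above the highest control. In this sum control mice 1 to 3 were at 255.8 to 271.3 CPM and control mice 4 to 6 at 148.1 to 186.1 CPM. Igkc, the constant segment of the kappa light chain, was at 452, 149 and 881 CPM against 34.9 to 217 CPM and was not called. Jchain was at 163, 53.2 and 314 CPM against 16.3 to 78.7 CPM and was not called (adjusted p = 0.101). Xbp1, the plasma cell factor that activated T cells also express, was the member called (0.70 ± 0.12, adjusted p = 0.00278). The number of the 10 plasma cell markers called higher was 2 without control mouse 1 or 3, 3 without the sex term, 4 against control mice 4 to 6 and 5 in DESeq2. The part of any of these cells in the T cell gene results was not tested.

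**Figure D4:**
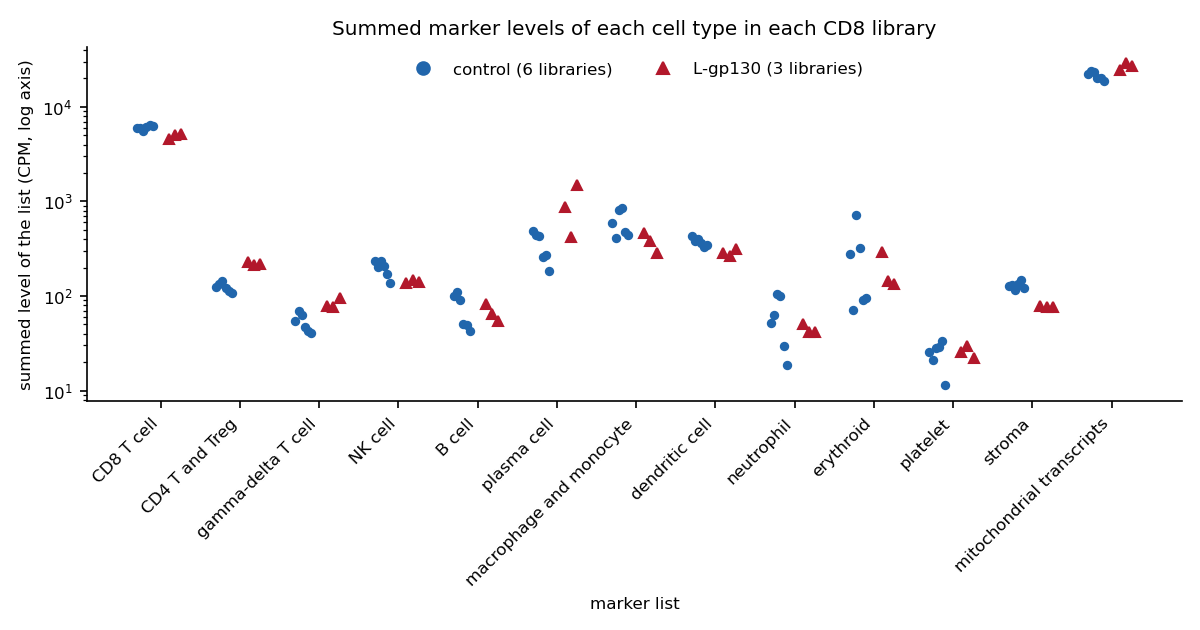
Summed CPM (log axis) of the markers of each cell type, with 1 point for each of the 9 mice, controls as blue circles and L-gp130 mice as red triangles. The sums of CD8 T cell markers are lower in all L-gp130 mice than in all controls and those of CD4 and regulatory T cells higher, also without the most abundant gene of each list (Tcf7 and Ikzf2). The stromal, gamma-delta and dendritic sums are also apart, but overlap once Pecam1, Cd163l1 and Ccr9 are left out of them. The macrophage and plasma cell sums overlap, but are apart once Lyz2 and Igkc are left out. For plasma cells that gap is narrow, 273.4 CPM in L-gp130 mouse 2 against 271.3 CPM in control mouse 1. Plasma cell markers reach 870.3 and 1482 CPM in L-gp130 mice 1 and 3.

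At the level of single transcripts fewer calls were made. Of 38877 transcripts 1600 (4.12%) were called, 706 higher (1.82%) and 894 lower (2.3%), and groups did not overlap in 13.6%. They belonged to 1453 genes, of which 1228 were also called as genes and 225 were not. Only 6 genes had transcripts called in both directions. The count depended on single libraries: it was 241, 485 and 280 without L-gp130 mouse 1, 2 or 3, 967 without control mouse 5, 618 against control mice 1 to 3 and 2409 against control mice 4 to 6.

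Transcripts annotated as retaining an intron leaned upward. Of 8873 tested 61 were called higher and 24 lower (0.687% and 0.27%), both below the shares over all transcripts (1.82% and 2.3%). Their median log2 fold change was 0.22 against 0.02 for all transcripts. Protein-coding transcripts leaned the other way, with 593 of 22512 higher and 776 lower (median -0.05). Retained-intron transcripts took 5.331%, 5.284% and 5.753% of the reads in the L-gp130 mice and 3.831% to 5.647% (median 4.54%) in the controls (exact permutation test, two-sided p = 0.0952). The control split ran through this measure: mice 1 to 3 were at 4.78% to 5.647% and mice 4 to 6 at 3.831% to 4.3%.

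Some genes had a called transcript without a called total. Cuedc1-201 was at 4.286, 5.25 and 4.088 CPM against 10.98 to 13.25 CPM (log2 fold change -1.42 ± 0.13, adjusted p = 0.00174), while the gene had an adjusted p of 0.0657. Ighm-202, a transcript of the heavy chain constant region of IgM, was at 129.4, 158.4 and 150.5 CPM against 235.5 to 267.6 CPM (-0.82 ± 0.08, adjusted p = 0.00236). Tecr-205, a transcript marked for nonsense-mediated decay, fell by 1.38 ± 0.16 (adjusted p = 0.00521). In all 3 the L-gp130 mice were below every control. Bend3-201 was at 0 in the L-gp130 mice and at 4.379 to 8.492 CPM in the controls, with no change of the gene's total.

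Transcript usage, the share of a gene's TPM (length-scaled abundance) that each of its transcripts takes, changed in few genes. By edgeR's test of differential usage 113 of 8658 genes (1.31%) were called, 41 of them also called as genes. In 50 of the 113 a transcript's share changed by at least 10 percentage points. On simulated data this test called too many genes, so a test of log2 transcript ratios in limma was added after the data were seen, and it called 10 (0.116%). The 9 called by both were Add3, Afg1l, Bend3, Fbxo3, L3mbtl3, Nek6, Pccb, Phc2 and Usp19.

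In each of these 9 a transcript was at 0 in all mice of 1 group. Nek6, a mitotic kinase, had 87.78%, 69.3% and 67.58% of its TPM in Nek6-203 in the L-gp130 mice and none in the controls, where all was in Nek6-201. Its total was low in both groups, 1.299 TPM against 0.2817 TPM. Pccb, a subunit of propionyl-CoA carboxylase, had none of its TPM in the non-coding Pccb-203 in the L-gp130 mice and 13.42% to 25.41% in the controls, while Pccb-201, the full coding transcript, had 89.68%, 89.45% and 84.99% against 63.84% to 78.03%. Bend3 showed Bend3-201 at 0% against 27.46% to 60.25%. Afg1l-204 was at 30.01%, 52.04% and 39.31% against 0%. In the other 5 (Add3, Fbxo3, L3mbtl3, Phc2 and Usp19) the transcript at 0 in 1 group held at most 19.51% of its gene in any mouse, in L3mbtl3. Salmon assigns reads among overlapping transcripts by a model, and a share of 0 can mean that the reads were given to a similar transcript.

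The other genes were called by the edgeR usage test alone. Gbp10, an interferon-induced GTPase, had 26.23%, 23.51% and 18.44% in the coding Gbp10-201 against 45.29% to 66.44% in the controls, and the rest in a retained-intron transcript (change -34.13 points, usage adjusted p = 0.00407). Mxi1, an antagonist of MYC, had 27.93%, 31.72% and 38.05% in Mxi1-201 against 9.344% to 17.86% (change 18.16 points, usage adjusted p = 0.00817), while Mxi1-203, whose coding sequence is shorter (684 against 885 bases), fell by 20.46 points and the gene total was not called. Rin3, a RAB5 exchange factor, shifted from Rin3-204 to Rin3-201 by 23.67 points (usage adjusted p = 0.000215). These genes were chosen among share changes without overlap of the groups, so its absence is not a further result. Primpol-201 gained 38.72 points but was at 20.55% in control mouse 3 and 0% in the other 5. None of Gbp10, Mxi1, Rin3 and Primpol passed the limma ratio test (adjusted p 0.0736, 0.231, 0.275 and 0.456).

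Vmp1, which encodes a membrane protein of autophagy, is the gene whose last part carries the miR-21a hairpin. The gene rose from 54.12 to 171.2 TPM, and its log2 fold change was 1.62 ± 0.09 (adjusted p = 3.18e-06). Most of the rise was in the short non-coding Vmp1-206 (chr11:86585020-86586994, minus strand, GRCm38), which took 77.04%, 77.72% and 75.76% of the gene against 46.12% to 61.81% (median 52.35%) in the controls (change 22.96 points, usage adjusted p = 0.00407, limma ratio test 0.154). The coding Vmp1-201 rose as a transcript (log2 fold change 0.75 ± 0.07, adjusted p = 0.00254), and its share fell by 16.76 points. Vmp1-206 ends 861 bases before the hairpin, which lies at chr11:86584067-86584158 on the same strand. The mature sequences from RefSeq (GRCm38.p6) are given because STAT3 is known to induce miR-21, with the seed, bases 2 to 8, in capitals. Mature miRNA itself is not measured in polyadenylated RNA.
mmu-miR-21a-5p: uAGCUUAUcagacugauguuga
mmu-miR-21a-3p: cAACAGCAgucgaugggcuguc

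**Figure D5:**
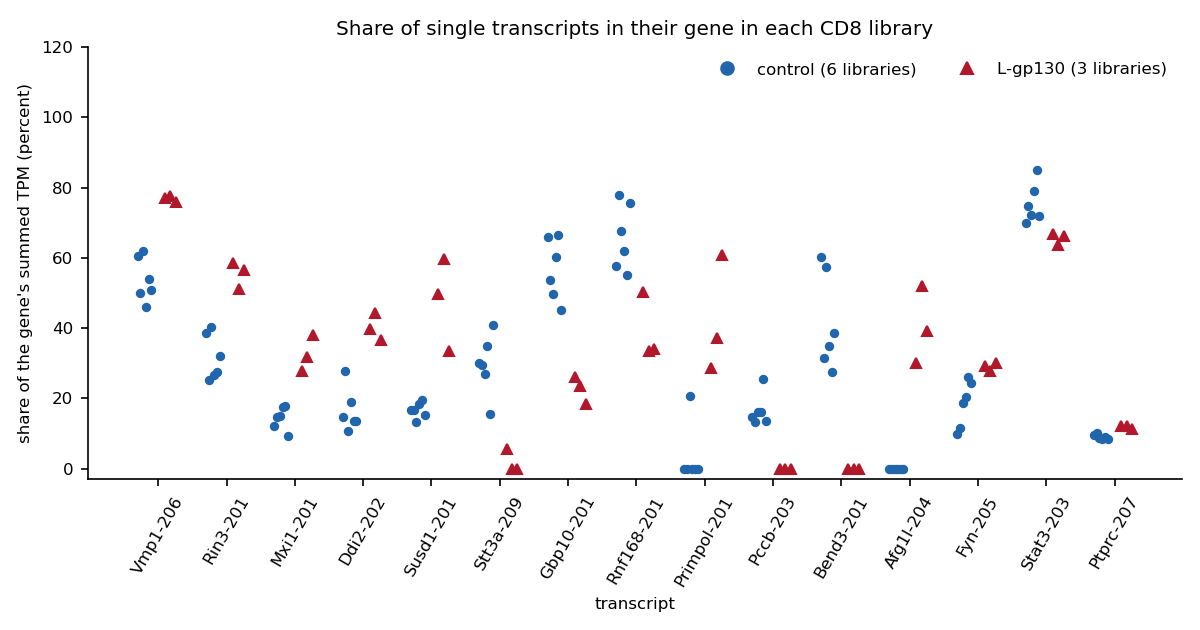
Share of the gene's TPM in percent taken by single transcripts for each of the 9 mice, controls as blue circles and L-gp130 mice as red triangles. Vmp1-206, Rin3-201 and Mxi1-201 are higher in every L-gp130 mouse than in every control, and Gbp10-201 lower.

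Regulators of splicing changed by small amounts as genes, and rose more often than they fell. Of 40 tested 9 rose and 2 fell, against 10.5% of all genes in each direction, with a median log2 fold change of 0.11. The number that rose was 1, 2 and 2 without L-gp130 mouse 1, 2 or 3, and 2 in males only. It was 5 without the sex term and 14 with reads per transcript summed per gene. The 2 that fell, Srsf5 and Ptbp3, were 0 without any 1 of the L-gp130 mice and in males only, and 1 without control mouse 2, 4, 5 or 6 and against control mice 1 to 3. Mbnl2, a regulator of exon choice, was at 73.4, 90.0 and 84.7 CPM against 52.7 to 65.3 CPM (log2 fold change 0.48 ± 0.09, adjusted p = 0.00382). Hnrnpll, which promotes skipping of the variable exons of Ptprc, was at 51.0, 44.5 and 50.7 CPM against 29.6 to 43.2 CPM (0.47 ± 0.11, adjusted p = 0.014), a call lost without L-gp130 mouse 1 (0.0793) or 3 (0.0817) and in males only (0.0843). Srsf5-203, a transcript of the splicing factor SRSF5, was at 3.177, 0.8076 and 0 CPM against 24.88 to 73.41 CPM (adjusted p = 0.01), and Srsf5 was among 2 of 40 splicing genes called for usage, with Srsf2.

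Of 45 T cell genes known for several isoforms 7 rose and 11 fell (4, 4 and 3 rose and 7, 8 and 7 fell without L-gp130 mouse 1, 2 or 3), and 1 of 42, Satb1, was called for usage. Ptprc, which encodes CD45 and loses its variable exons when T cells are activated, was not called as a gene (log2 fold change -0.04) or for usage (adjusted p = 0.553). Its longest transcript, Ptprc-207 with 33 exons, took 12.07%, 12.06% and 11.38% of the gene against 8.368% to 10.18% (median 8.897%) in the controls, and was called as a transcript (log2 fold change 0.38 ± 0.06, adjusted p = 0.0172). The share was 2.75 points higher (exact permutation test, two-sided p = 0.0119, the smallest that 84 splits allow, not adjusted for the other transcripts). Ptprc-203, with 30 exons, took 40.2% ± 0.899 (SD, n = 3) against 42.2% ± 1.75 (SD, n = 6). Stat3 usage was not called either (adjusted p = 0.168), and Stat3-203, its main coding transcript, took 66.83%, 63.61% and 66.35% against 69.8% to 84.96%. In Fyn, Fyn-205 took 29.33%, 27.73% and 30.19% against 9.799% to 26.23% without a call for the gene (adjusted p = 0.155), and control mice 1 to 3 were at 9.799% to 18.69% and mice 4 to 6 at 20.42% to 26.23%. Il6st usage had an adjusted p of 0.959.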

How the data were processed

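CD8+ cells of 3 L-gp130 and 6 control mice were sequenced as unstranded paired reads of 150 bases from polyadenylated RNA. Per the submitters' processing notes, cutadapt 3.4, Trimmomatic 0.39, Salmon 1.5.2 and edgeR 3.34.1 were used on GRCm38. The deposited gene table holds estimated counts for 51201 genes, and the deposited Salmon files hold estimated counts and TPM for 137641 transcripts, of which 694 without annotation took 0.144% to 0.185% of the reads. The authors' normalised CPM served to count the genes they list, 14254. Groups were taken from the labels, in which mice are numbered within each group.

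Estimated counts were rounded. Genes and transcripts were filtered by expression, scaled by the trimmed mean of M-values and tested with the quasi-likelihood test of edgeR 4.0.16 (R 4.3.3) with sex as a covariate and Benjamini-Hochberg adjustment at 0.05, and levels are scaled CPM. The standard error is the log2 fold change divided by the root of F. Transcript usage was tested with edgeR on counts per transcript, and, as an alternative chosen after seeing the data, with limma 3.58.1 on log2 ratios with a pseudocount of 0.5. Scripts were tested on simulated data. DESeq2 1.42.0 was an alternative. Depth allows counting intervals at the 95% level, which cover counting error only.

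Members and gene lists were chosen with earlier results of these data known. Named were Il6st, Stat3 and Socs3, and up to 3 called members of each list by adjusted p, with up to 2 in the rarer direction. The 10 largest rises and falls at a mean log2 CPM of at least 1 without overlap were named, and 5 called transcripts whose gene was not called. For usage, the 10 largest share changes at 5 TPM or more without overlap were named, plus 4 fixed genes. Other genes were named as examples after their values were seen, and were not followed one by one in the alternatives. Some genes that the rule names are not reported here. Sums of marker lists without their most abundant member were added after the values were seen.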

Additional observations from a re-analysis of the deposited data

Results flagged for a closer look

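In 14 of 162 sets of 6 control values examined, 1 control lay far from the other 5 (gap to the nearest over the range above 0.625), and chance flags about 1 set in 20.

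Control mouse 4 was the highest control in 5 genes. Mcm2, Bub1 and Cdc20, genes of the cell cycle, were at 110.3, 10.82 and 27.77 CPM in that mouse, against 93.55 to 98.16, 6.006 to 7.67 and 18.96 to 21.72 CPM in the other controls. Tpi1 of glycolysis was at 72.32 CPM against 56.47 to 59.43 CPM, and the fibroblast collagen Col14a1 at 7.059 CPM against 1.226 to 3.251 CPM. In Mcm2, Bub1, Cdc20 and Tpi1 all L-gp130 mice still lay above this mouse.

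Dapl1 was at 69.39 CPM in control mouse 3 against 87.78 to 94.52 CPM, and Itga9 at 13.99 CPM in the same mouse against 3.086 to 6.826 CPM. Moxd1 was at 0.4664 CPM in control mouse 3 and at most 0.0551 CPM in the others. Cd160 was at 26.87 CPM in control mouse 2 against 36.8 to 40.27 CPM, and Galr3 at 0.924 CPM in control mouse 5 against 0.2167 to 0.4664 CPM.

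Among transcript shares, Afg1l-201 was at 80.51% in control mouse 6 and 100% in the other 5. Pccb-203 was at 25.41% in control mouse 5 against 13.42% to 16.12%. Primpol-201 was at 20.55% in control mouse 3 and 0% elsewhere among controls. Susd1-205 was at 48.62% in control mouse 6 against 30.32% to 36.29%.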

How the results depend on the processing

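Gene counts stayed within 1.5 times of 2996 under DESeq2 (3688), limma-voom (3044), DESeq2-style size factors (2979), other filters, no sex term (2992), reads summed per gene (3891) and either trio of controls (2539 and 3685). In males only 1740 genes were called (927 higher, 813 lower), at an adjusted p of 0.01 1249, and with a 2-fold change 836. Leaving out 1 mouse gave 1374 to 2967 genes, 762 to 1480 higher and 612 to 1487 lower. Transcripts fell to 618 against control mice 1 to 3, rose to 2409 against mice 4 to 6, and ranged from 241 to 1487 when 1 mouse was left out. Usage gave 422 genes against control mice 4 to 6, 62 to 138 without 1 mouse, 69 by Simes adjustment, 50 with a change of 10 points, and 10 by limma ratios, an alternative chosen after seeing the data. The cause of these moves was not tested, beyond the fewer samples that smaller fits hold.

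Among 131 named genes none reversed in 21 alternatives. Most were chosen because they were called in the main fit, and the alternatives reuse these libraries, so reversals were unlikely from the start. Calls were lost for 19, 17 and 22 of the named genes without L-gp130 mouse 1, 2 or 3, and for 18 in males only. Mouse numbers were not used to pair the samples. Correlations of same-numbered mice were 0.0494, -0.0564 and 0.178, and those of other pairs across the groups ran from -0.184 to 0.112. The highest was that of mice 3, both female. So few pairs cannot decide whether the numbers pair mice. With the replicate number as a block over mice 1 to 3, 2382 genes, 34 transcripts and 93 usage genes were called. Depth limits low genes such as Il21, whose controls hold 5 counts in all.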

Other observations

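Some genes outside the lists also changed clearly, and the examples here were chosen after their values were seen. Ly6a, which encodes the stem and activation marker Sca-1, was at 143, 127 and 177 CPM in the L-gp130 mice, with a mean of 36.8 CPM ± 5.12 (SD, n = 6) in the controls (log2 fold change 2.02 ± 0.13, edgeR adjusted p = 1.2e-05). Tfrc, the transferrin receptor through which dividing cells take up iron, was at 158, 138 and 180.2 CPM, with a control mean of 64.4 CPM ± 8.08 (SD, n = 6) (log2 fold change 1.30 ± 0.09, edgeR adjusted p = 1.2e-05). All 3 L-gp130 mice were above all 6 controls in both genes. Tfrc is also abundant on erythroid precursors, whose markers Klf1 and Car2 rose, and their part in its rise was not tested.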
